A study of Mus musculus with 2 samples.

Results

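Apolipoproteins are the protein components of lipoprotein particles, and the 10 genes described here (Apoa1, Apoa2, Apoa4, Apoa5, Apob, Apoc1, Apoc3, Apoe, Apoh and Apom) were followed in fibrotic mouse liver after treatment with TSG-6 or with PBS. They were taken from a fixed list of symbols: every non-control probe whose transcript accession belongs to a listed gene in RefSeq was a member probe. All 10 genes were found, among 20284 genes with a symbol on the array, through 12 probes and 30 spots on each array. Of the genes, 8 had 1 probe, and Apoa2 and Apob had 2 probes each. All 10 were well above background on both arrays, and no member spot was saturated.

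Both groups were male C57BL/6 mice with liver fibrosis. The TSG-6 group was given TSG-6 intravenously as a recombinant protein, which is a secreted factor that binds hyaluronan, and the PBS group received PBS, the vehicle. Liver RNA was taken 2 weeks after treatment, RNA from 3 mice in a group was combined into a pool, and Cy3-labelled cRNA of each pool was read on its own 1-colour Agilent array. How fibrosis was induced and the age of the mice are not given in the sources used here, and healthy liver was not analysed here. Each group is a single pool without a replicate, so differences carry no p-value and describe these 2 pools; pool, array and treatment cannot be told apart. The number of arrays limits the precision.

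The liver makes most circulating lipoproteins. Apolipoprotein B forms the frame of very-low-density lipoprotein (VLDL), which carries triglyceride out of the hepatocyte, while apolipoproteins A-I and A-II form high-density lipoprotein (HDL), which takes up cholesterol from cells. The smaller exchangeable apolipoproteins move between particles and govern how fast lipases empty them and how receptors clear them. Several of these genes lie together: in mouse, Apoa1, Apoc3, Apoa4 and Apoa5 are neighbours on chromosome 9, and Apoc1 and Apoe are neighbours on chromosome 7. Apoa2 lies on chromosome 1, Apoh on chromosome 11, Apob on chromosome 12 and Apom on chromosome 17.

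The chromosome 9 neighbours include the gene whose difference lay apart from those of the others (Apoa4), and for 3 of them the promoter windows listed by RefSeq on GRCm38.p6 are shown, so that the sequence upstream of Apoa4 can be read beside that of Apoa1 and Apoa5. Each window runs 5′ to 3′ from 250 bases before the start site to 50 after it, all 3 are on the plus strand, and capitals mark a match to one of the motifs searched. The windows are chr9:46240594-46240893 for Apoa4, chr9:46228380-46228679 for Apoa1 and chr9:46268358-46268657 for Apoa5.
Apoa4: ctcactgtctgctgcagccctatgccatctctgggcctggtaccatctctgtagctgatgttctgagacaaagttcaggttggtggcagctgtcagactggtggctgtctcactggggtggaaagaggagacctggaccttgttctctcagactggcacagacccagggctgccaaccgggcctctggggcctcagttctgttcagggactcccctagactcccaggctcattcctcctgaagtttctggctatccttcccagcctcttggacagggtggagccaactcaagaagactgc
Apoa1: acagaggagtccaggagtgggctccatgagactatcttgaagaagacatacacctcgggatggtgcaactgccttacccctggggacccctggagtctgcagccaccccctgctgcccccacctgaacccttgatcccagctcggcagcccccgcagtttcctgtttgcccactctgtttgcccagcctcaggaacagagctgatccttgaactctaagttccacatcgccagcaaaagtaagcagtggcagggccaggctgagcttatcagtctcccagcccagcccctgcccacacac
Apoa5: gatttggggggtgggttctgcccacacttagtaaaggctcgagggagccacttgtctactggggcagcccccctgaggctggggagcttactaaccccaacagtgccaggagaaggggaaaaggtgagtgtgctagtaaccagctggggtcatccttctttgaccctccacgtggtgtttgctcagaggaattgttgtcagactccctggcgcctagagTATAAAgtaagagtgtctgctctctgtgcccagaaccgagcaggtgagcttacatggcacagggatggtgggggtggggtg

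The motifs were searched as exact letters on both strands: TATAAA (the TATA box), AGGTCA (a nuclear receptor half-site), CAAAGTCCA (an HNF4 site), TTGCGCAA (a C/EBP site), TGTTTAC (a forkhead site), TCACGTG (an E-box with a flanking T) and GGGCGG (the GC box). Each motif was counted on its own, and overlaps between motifs were allowed. The Apoa4 and Apoa1 windows held none of these motifs, and the Apoa5 window held TATAAA at -31 from its start site. RefSeq listed 12 windows for 8 of the 10 members, and TATAAA was in 5 of the 12 (in windows of Apoa2, Apoa5, Apob and Apoe), against 13.6% of all 32851 windows. The matches lay at -212 for Apoa2, -100 and -96 for Apoe, -60 for Apob, and -56 and -31 for Apoa5. The Apoa5 matches are the same site in overlapping windows. Position was not used in the count. TGTTTAC was in 3 of the 12 (Apoa2, Apoe and Apoh), against 3.65% of all. AGGTCA was in 2 of the 12 (Apoa2 and Apoh), against 16.3% of all. None of the 12 held CAAAGTCCA (0.475% of all windows), TTGCGCAA (0.183%), TCACGTG (3.77%) or GGGCGG (35.7%). Several windows belong to 1 gene and overlap, as the pair listed for Apoa5 does, so that the 12 are not independent. These matches describe letters in a window and were not tested against the expression values.

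Differences below are log2 values, TSG-6 pool minus PBS pool, of the scanner software's background-subtracted signal scaled to each array's 75th percentile. That percentile was a signal of 2476 on the TSG-6 array and 3158 on the PBS array, so that scaling alone adds 0.35 to every difference. A gene was counted as higher or lower past a fixed size of 1.5-fold or 2-fold. The 10 members had a median difference of 0.37, with 9 above 0 and 1, Apoa4, below 0; under quantile, loess and spike-in scaling the 9 others no longer shared a sign. Over all 15151 genes measured on both arrays the median was 0.08 and the quartiles were -0.23 and 0.33. Of these genes, 57.5% were above 0 and 42.5% below. No member was past 1.5-fold in either direction, while 10.5% of genes passed 1.5-fold on the higher side in the TSG-6 pool and 10.3% on the lower side. No member was past 2-fold either, against 2.94% of genes higher and 4.29% lower. In bulk liver RNA, fewer cells of a type and less RNA per cell cannot be told apart.

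**Figure D1:**
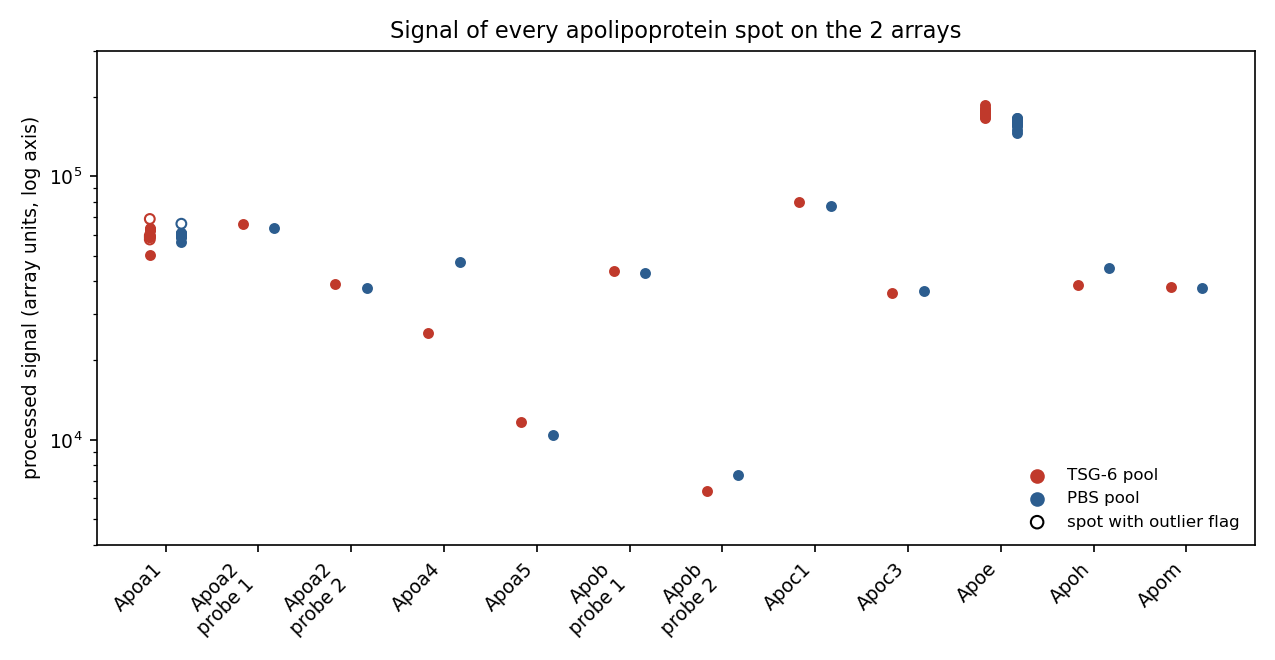
Processed signal (array units, log axis) of every apolipoprotein spot, by gene and probe, in the TSG-6 pool (red, left) and the PBS pool (blue, right), with open circles for spots carrying an outlier flag. Apoa4 has a signal of 25479 in the TSG-6 pool and 47514 in the PBS pool, while Apoa1, Apoa2, Apoc1, Apoc3 and Apom nearly coincide; signals of different probes are not comparable with each other.

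Apoa4 encodes apolipoprotein A-IV, carried on triglyceride-rich particles and HDL, and made in mouse by both intestine and liver. Its signal was 25479 in the TSG-6 pool and 47514 in the PBS pool, from 1 spot on each array, with no outlier flag. Before scaling, the TSG-6 signal was thus below the PBS signal, at a log2 difference of -0.90. After scaling, the difference was -0.55, which is 1.46-fold lower and short of the 1.5-fold size. The scanner software gave every member spot an error of 10% of its signal, which is 0.20 for this single-spot difference. It is the same for all members, so it was not measured for Apoa4 alone. It covers the array measurement and not the spread between mice. Apoa4 stood -0.92 from the median of the other 9 members and 0.68 below the next lowest, Apoh. A shift common to all genes cannot alter this separation. It stayed at -0.92 under such scalings, in the value table, with the flag and filter choices and with probe averaging. It was -0.84 under quantile, -0.85 under loess, -1.06 with normexp and -1.07 with the raw median signal. Apoa4 was the lowest member and below 0 in all 13 alternative settings, but a common shift could not have changed its rank.

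Among all genes measured, the Apoa4 difference lay at percentile 11.4. In the 1516 genes of highest signal (a set chosen after the values were seen, which holds 9 of the 10 members), the median difference was 0.26 and the quartiles were 0.11 and 0.41, closer together than over all genes. There, 10 genes, or 0.66%, had a difference at or below that of Apoa4. Intestine is the other site of Apoa4 expression, so enterocyte markers were read beside it. Of 11 enterocyte markers, 5 (Alpi, Cdx1, Cdx2, Muc2 and Rbp2) were not well above background on either array. The 6 measured ones had a median difference of 0.03, with 3 above 0 (Sis at 0.58, Slc5a1 at 0.50 and Lct at 0.16) and 3 below (Fabp2 at -0.10, Anpep at -0.17 and Vil1 at -0.36). The 3 above 0 were dim, and so was Vil1 below 0. Signals in the TSG-6 and PBS pools were 37 and 32 for Sis, 67 and 61 for Slc5a1, and 56 and 64 for Lct. Vil1 had 172 in the TSG-6 pool and 282 in the PBS pool. The summed level of the 6 was 3.85 in the TSG-6 pool and 3.96 in the PBS pool (log2, scaled). Most of it was Fabp2, which alone was at 3.63 in the TSG-6 pool and 3.73 in the PBS pool. Whether this sum reads intestinal tissue was not tested.

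**Figure D2:**
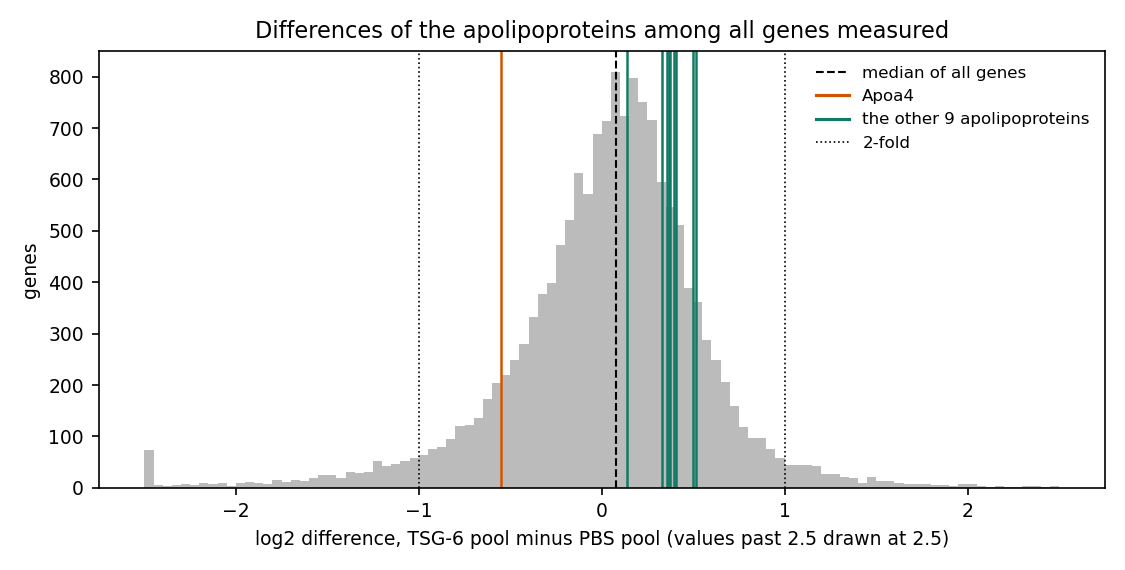
Number of genes (vertical axis) by log2 difference, TSG-6 pool minus PBS pool (horizontal axis), for the 15151 genes measured on both arrays, with lines for Apoa4 (orange), the other 9 apolipoproteins (green), the median of all genes (dashed) and 2-fold (dotted). The 9 lie between 0.14 and 0.51 and Apoa4 at -0.55, all inside the 2-fold lines.

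Of the HDL proteins, Apoa1 encodes apolipoprotein A-I, the main HDL protein and the activator of the cholesterol-esterifying enzyme LCAT. Its probe was printed as 10 spots on each array, and outlier flags removed 4 of them on the TSG-6 array and 1 on the PBS array. The remaining 6 TSG-6 spots ran from 50147 to 63518 with a median of 62728, and the remaining 9 PBS spots ran from 56482 to 60999 with a median of 60518. The PBS range lies within the TSG-6 range, so the unscaled signals were not separated. The unscaled difference was 0.01 and the scaled one 0.36, or 0.35 with the flagged spots kept. Over the 6 spot positions used on both arrays, scaled differences ran from 0.12 to 0.51.

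Apoa2 encodes apolipoprotein A-II, the second HDL protein. Its brighter probe had a signal of 65995 in the TSG-6 pool and 63566 in the PBS pool, a scaled difference of 0.41. Its other probe had 38960 in the TSG-6 pool and 37571 in the PBS pool, a scaled difference of 0.40, so the probes gave nearly the same difference. Apom encodes apolipoprotein M, a lipocalin that binds sphingosine-1-phosphate on HDL. Its signal was 38158 in the TSG-6 pool and 37715 in the PBS pool, a scaled difference of 0.37. Unscaled, the log2 differences of the 3 HDL genes were 0.01 for Apoa1, 0.05 for Apoa2 and 0.02 for Apom, small beside the 0.35 that scaling adds.

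Apob encodes the structural protein of VLDL, of LDL and of chylomicrons. Its brighter probe had a signal of 43562 in the TSG-6 pool and 42931 in the PBS pool, a scaled difference of 0.37. The dimmer probe had 6405 in the TSG-6 pool and 7341 in the PBS pool, a scaled difference of 0.15. Before scaling, the probes lay on opposite sides of 0, at 0.02 for the brighter and -0.20 for the dimmer. This disagreement is close to the software's error of 0.20 for each, which is a fixed share of the signal and not a spread seen between probes.

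The genes that set how fast triglyceride-rich particles are emptied have opposing known roles. Apoa5, whose product promotes lipolysis by lipoprotein lipase, had a signal of 11660 in the TSG-6 pool and 10413 in the PBS pool, a scaled difference of 0.51, the highest of the 10. Apoc3, whose product inhibits lipolysis and particle uptake, had 36108 in the TSG-6 pool and 36615 in the PBS pool, a scaled difference of 0.33. Apoc1, whose product also slows particle uptake, had 79826 in the TSG-6 pool and 77426 in the PBS pool, a scaled difference of 0.40. Apoa5 was 1.43-fold higher in the TSG-6 pool, Apoc1 1.31-fold and Apoc3 1.26-fold, all short of 1.5-fold, and Apoc3 was at -0.04 under spike-in scaling. Apoa5 was at 0.43 under both quantile and loess scaling and at 0.15 under spike-in scaling, while under loess scaling Apoc3 was at 0.07 and Apoc1 at 0.01.

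Apoe encodes apolipoprotein E, the ligand through which remnant particles bind their receptors on liver cells. Its 10 spots ran from 166211 to 186996 (median 175916) in the TSG-6 pool and from 146346 to 167349 (median 160194) in the PBS pool. The 2 ranges overlap only at their ends. The scaled difference was 0.50 with an SE of 0.026 over spots, and single spots gave 0.34 to 0.67. That SE counts printing and reading of 1 labelled RNA and not the spread between mice. Apoe was at -0.02 under loess and -0.04 under quantile scaling, and at 0.13 under spike-in scaling.

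**Figure D3:**
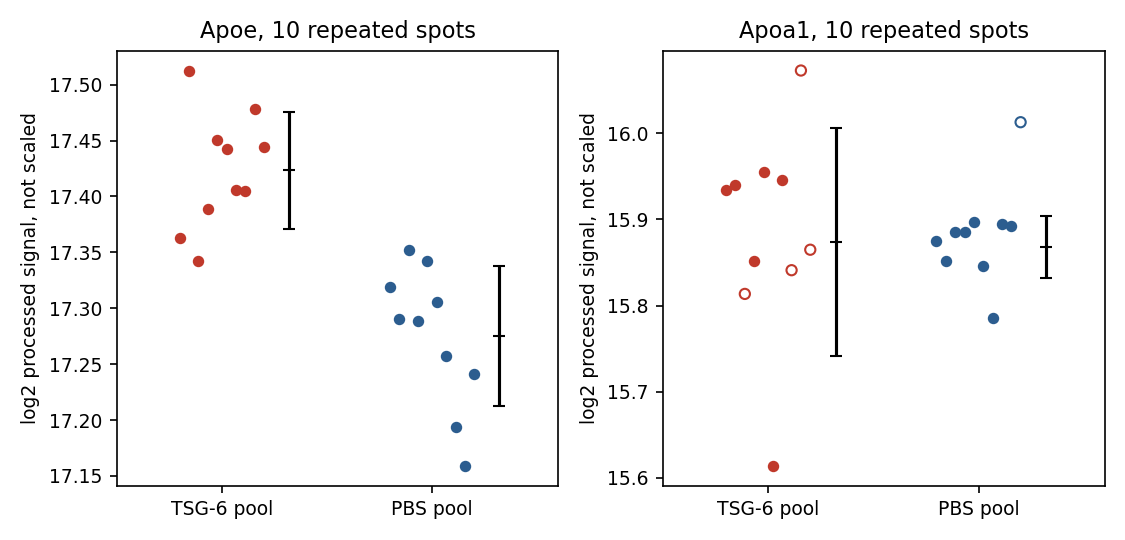
Unscaled log2 processed signal of the 10 spots of Apoe (left) and Apoa1 (right) in the TSG-6 pool and the PBS pool. Filled points were used, open points carry an outlier flag, and the bar beside each group is the mean ± SD of the filled points over spots of 1 array, with SDs of 0.052 and 0.063 for Apoe and 0.13 and 0.036 for Apoa1 (TSG-6 pool, PBS pool).

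Apoh encodes beta-2-glycoprotein I, a plasma phospholipid-binding protein found in part on lipoproteins. Its signal was 38645 in the TSG-6 pool and 44856 in the PBS pool, a scaled difference of 0.14. After Apoa4 it had the lowest difference of the 10, and it was below 0 under quantile (-0.17), loess (-0.14) and spike-in scaling (-0.23). Without Apoa4, the other 9 differences ran from 0.14 to 0.51 with an SD of 0.11 over genes. The pooled SD of the difference between repeated spots was 0.13 over 327 probes. The range of the 9 was 0.38 by the 75th percentile, 0.60 under quantile and 0.57 under loess scaling, where Apoa5 was the highest and Apoh the lowest of them.

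How far the 9 stood above 0 depended on the scaling. Unscaled, the 10 members had a median of 0.02, with 7 above 0 and 3 below. The spike-in RNAs added to both samples had a median unscaled difference of 0.02 over 246 spots of 9 probes, with probe medians from -0.37 to 0.11. With the spike-ins set to 0, the members' median was 0.00 and that of all genes -0.29. The members' median stood 0.29 above that of all genes under the 75th percentile, and equally under median and spike-in scaling, which shift all genes alike. Under quantile scaling it stood 0.04 above, and under loess 0.08 above; these adjust the difference by signal. Relative to the median of all genes, Apoa4 stood at -0.62 under the 75th percentile, -0.80 under quantile and -0.75 under loess scaling.

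**Figure D4:**
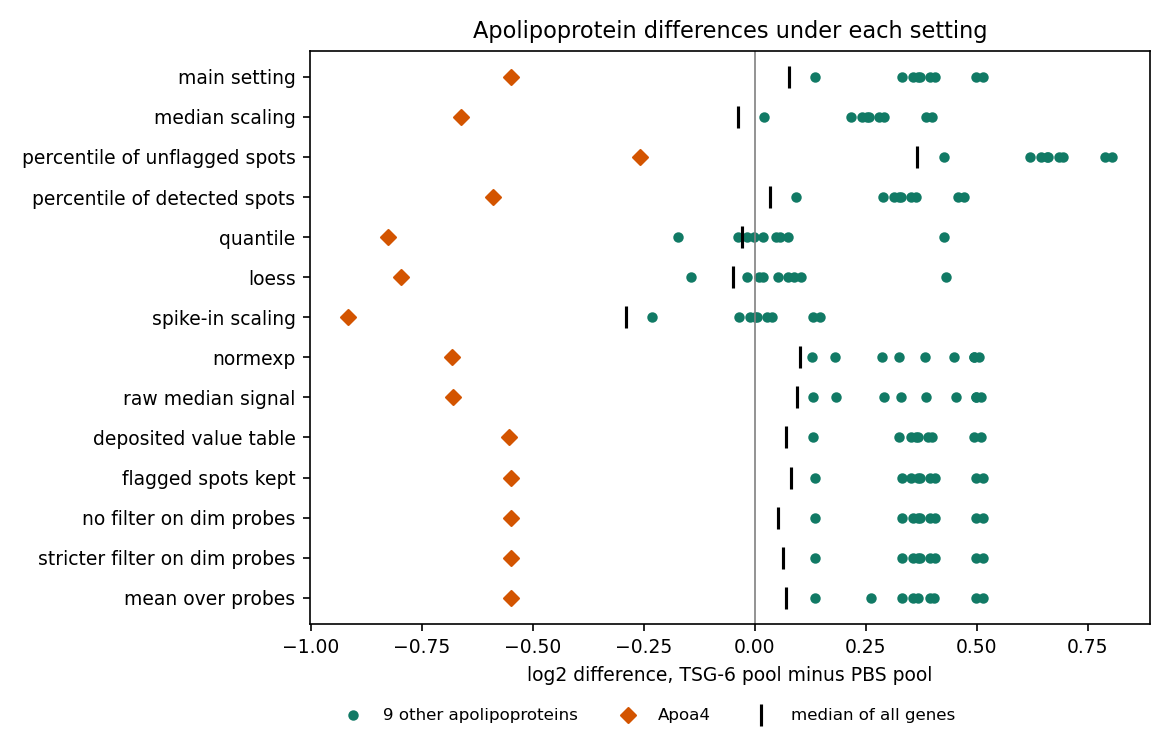
Log2 difference, TSG-6 pool minus PBS pool (horizontal axis), of Apoa4 (orange diamonds), the other 9 apolipoproteins (green points) and the median of all genes (black bars) under the main setting and 13 alternatives (rows). Apoa4 lies left of every other member in each row, between -0.92 and -0.26, while the others straddle 0 under quantile, loess and spike-in scaling.

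In the chromosome 9 cluster the order of genes along the RefSeq table is Apoa1, Apoc3, Apoa4, Apoa5. Their scaled differences in that order were 0.36, 0.33, -0.55 and 0.51. Taking ratios within an array removes the scaling constant: relative to Apoa4, the TSG-6 pool over the PBS pool gave 1.87-fold for Apoa1, 1.84-fold for Apoc3 and 2.09-fold for Apoa5. These ratios show unequal change and not which gene moved. Of 10 listed genes beyond the cluster, none was 1.5-fold higher and 1, Tagln, was at least 1.5-fold lower. The list median was 0.13, and over all genes measured 10.5% were higher and 10.3% lower by that size. Tagln, a smooth muscle and myofibroblast gene, had a signal of 10433 in the TSG-6 pool and 27987 in the PBS pool, a difference of -1.07. Rnf214 was at 0.42, Sidt2 at 0.31 and Pafah1b2 at -0.33. Beside Tagln, 10 of the 11 measured stellate cell and myofibroblast markers were below 0, with a median of -0.57 and a summed level of 5.80 in the TSG-6 pool and 6.06 in the PBS pool (log2, scaled); the part of cell composition in the Apoa4 difference was not tested.

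In the chromosome 7 cluster, Apoc1 at 0.40 and Apoe at 0.50 lie next to Apoc4. Apoc4, a minor VLDL protein, had a signal of 47221 in the TSG-6 pool and 38662 in the PBS pool and was 1.56-fold higher in the TSG-6 pool, a difference of 0.64. It passed 1.5-fold under 7 of 13 alternatives, and its lowest value was 0.27, under spike-in scaling. Apoc2 was not analysed here. Of 13 listed neighbours, Apoc4 included, 4 were at least 1.5-fold higher and 0 lower, against 10.5% and 10.3% of all genes. Their median was 0.10. The others of the 4 were Nkpd1 at 1.06, Mark4 at 0.88 and Nectin2 at 0.65, where the second Nectin2 probe was at -0.08. Mark4 was dim, with a signal of 125 in the TSG-6 pool and 86 in the PBS pool. It was at 0.54 with normexp, short of 1.5-fold, and did not pass the stricter filter on dim probes.

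Other apolipoprotein genes and HDL-borne proteins were read beside the members. Of 17 measured, 15 were above 0 with a median of 0.53, against 57.5% of all genes above 0. At least 1.5-fold higher were 5 and lower 0, against 10.5% and 10.3% of all genes. Saa4, a constitutive serum amyloid A carried on HDL, had a signal of 28744 in the TSG-6 pool and 21249 in the PBS pool, a difference of 0.79. Apol7c, of the apolipoprotein L family, was at 0.80. Apol10b, of the same family, was at 2.01 by its brighter probe (360 in the TSG-6 pool and 114 in the PBS pool) and at 0.39 by its other probe. Apolipoprotein L genes are near copies of each other, and their probes may share transcripts. The median of this list stayed above 0 under all 13 alternatives, from 0.16 to 0.82.

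Genes that build and export lipoproteins were read next. Of 19 measured assembly and secretion genes, 0 were past 1.5-fold in either direction, against 10.5% of all genes higher and 10.3% lower. The median of the 19 was 0.09. Mttp, the triglyceride transfer protein that loads lipid onto apolipoprotein B, had a signal of 13551 in the TSG-6 pool and 17985 in the PBS pool, a difference of -0.06. Sec24d, a coat protein of secretory vesicles, was at -0.58, Smlr1 at 0.55, the triglyceride synthesis enzyme Dgat1 at 0.46 and the cargo receptor Mia3 at 0.41. Of 11 measured genes of HDL formation and remodelling, 0 were past 1.5-fold, with a median of 0.31. Abca1, which loads cholesterol onto apolipoprotein A-I, was at -0.03 (10785 in the TSG-6 pool and 14004 in the PBS pool), Lcat at 0.54, hepatic lipase Lipc at 0.44, the sterol transporter Abcg8 at 0.44 and Npc1 at 0.37.

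Of 13 measured lipases and their regulators, 2 were at least 1.5-fold higher and 0 lower, against 10.5% and 10.3% of all genes. The list median was 0.20. Angptl4, an inhibitor of lipoprotein lipase, was 1.56-fold higher in the TSG-6 pool, with a signal of 49234 there and 40219 in the PBS pool; it passed 1.5-fold under 9 of 13 alternatives and was at 0.28 under spike-in, 0.32 under quantile, 0.35 under loess and 0.53 under median scaling. Pcsk5, a proprotein convertase, was at 0.89 by its brighter probe and at 0.08 by its other probe. Lpl, the lipase on which Apoa5, Apoc3 and Angptl4 products act, had a signal of 20776 in the TSG-6 pool and 37842 in the PBS pool, a difference of -0.51, and Sel1l, needed for its export, was at -0.56. By the 75th percentile neither was past 1.5-fold lower, but Lpl was under 4 and Sel1l under 5 of the 13 alternatives, median, quantile, loess and spike-in scaling among them.

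Of 26 measured receptors and clearance genes, 1 passed 1.5-fold on the higher side and 6 on the lower side, 3 of these past 2-fold. Over all genes the shares were 10.5% higher and 10.3% lower, with 4.29% past 2-fold lower. The list median was 0.14. The lowest were Lrp8 at -1.17, an apolipoprotein E receptor with a signal of 24 in the TSG-6 pool and 68 in the PBS pool, Cubn at -1.14, which takes up apolipoprotein A-I in kidney, and the scavenger receptors Msr1 at -1.10 and Olr1 at -0.87. Lrp8 was dim: it was at -0.24 with normexp and did not pass the stricter filter on dim probes. With normexp, Cubn was at -0.77 and Olr1 at -0.56, and 3 genes of the list were past 1.5-fold lower and 1, Msr1, past 2-fold. Msr1 had a signal of 1156 in the TSG-6 pool and 3158 in the PBS pool. Msr1 is a macrophage gene, and the 15 measured macrophage markers had a median of 0.15, with 8 above 0 and 7 below. These ranged widely: Timd4 was at 1.26, and Gpnmb at -1.32, Trem2 at -0.82, Spp1 at -0.82 and Ccr2 at -0.56. Itgam, counted above 0 at 0.33 by its brightest probe, was at -1.12 by another of its 3 probes. Summed, the level of the 15 was 7.27 in the TSG-6 pool and 7.24 in the PBS pool (log2, scaled).

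Of 35 measured transcription factors known to act on apolipoprotein genes, 5 passed 1.5-fold on the higher side and 2 on the lower side. Those shares were 10.5% and 10.3% over all genes. The list median was 0.16. Onecut1 (HNF6) was 3.99-fold higher in the TSG-6 pool, with a signal of 999 in the TSG-6 pool and 319 in the PBS pool. Srebf1, the lipid synthesis regulator, had a signal of 3817 in the TSG-6 pool and 8078 in the PBS pool, a difference of -0.73. Nr0b2, the bile acid-induced repressor SHP, was at -0.67. Hnf4a, which drives Apoa4, Apoa1, Apoc3 and Apob, was at 0.17 (29971 in the TSG-6 pool and 33870 in the PBS pool), and the sterol receptor gene Nr1h3 at 0.12.

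Other proteins that hepatocytes secrete into plasma were set beside the members. Of 28 measured genes of that kind, 2 were at least 1.5-fold higher and 0 lower, against 10.5% and 10.3% of all genes. Above 0 were 27, against 57.5% of all genes, and the list median was 0.36. Over the 13 alternatives that median ran from -0.01 to 0.65. Alb, serum albumin, had a signal of 63130 in the TSG-6 pool and 62503 in the PBS pool, a difference of 0.37. Azgp1 was at 0.67, Proz, a vitamin K-dependent plasma protein, at 0.60, and Serpina1a, an antitrypsin gene with near-identical copies, at 0.53. All 8 hepatocyte markers with unflagged spots were measured on both arrays, with a median difference of 0.43, and outlier flags removed the other 6. Of the 8, 7 were above 0, and they ran from -0.28 for Cyp3a11 to 1.19 for Cyp2e1. With flagged spots kept, Cyp3a11 was at 0.98. Scaling adds 0.35 to each of these differences. The summed level of the 8 was 7.43 in the TSG-6 pool and 6.96 in the PBS pool (log2, scaled). The part of hepatocyte content in the members' differences was not tested.

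**Figure D5:**
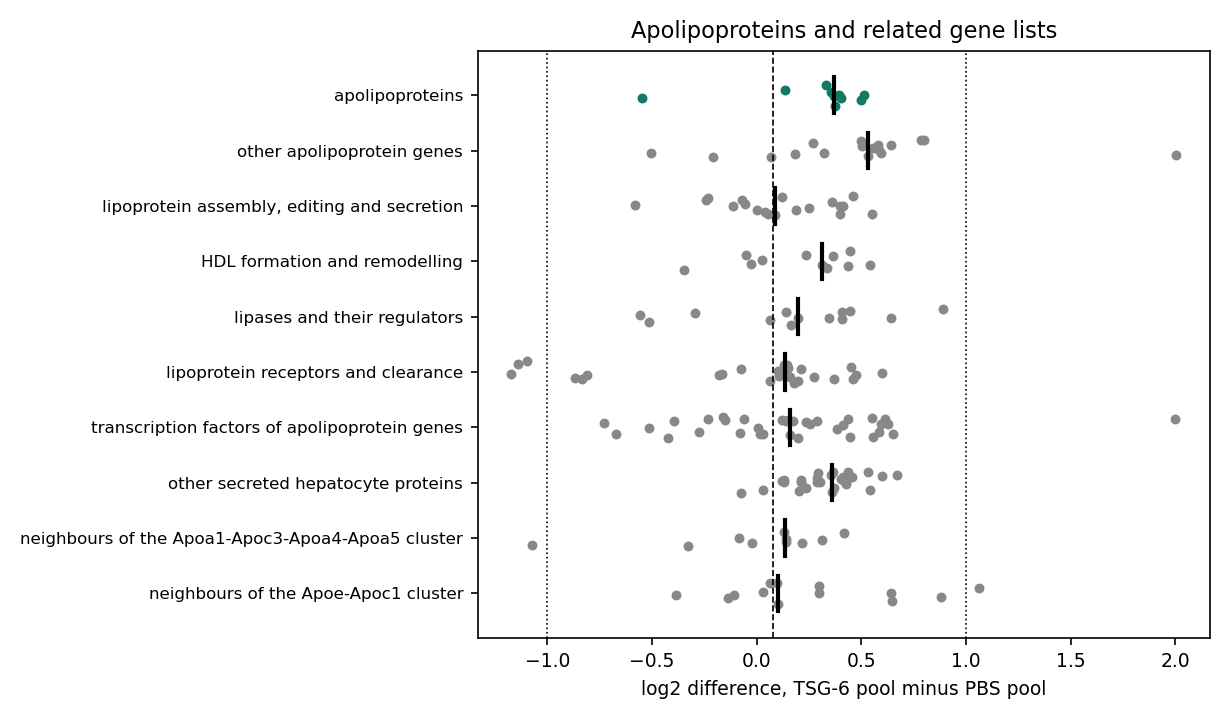
Log2 difference, TSG-6 pool minus PBS pool (horizontal axis), of the 10 apolipoproteins (green) and of the measured genes of 9 related lists (grey), 1 point a gene, with black bars at each list's median, a dashed line at the median of all genes and dotted lines at 2-fold. Apart from Apoa4, the apolipoproteins lie near the secreted hepatocyte proteins, whose median is 0.36.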

How the data were processed

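Liver RNA pools of TSG-6 and PBS treated mice were each measured on 1 array. The deposited scanner files hold the intensity of each spot as a processed signal, background-subtracted and detrended by the software, per the file headers. Feature Extraction has the version 11.5.1.1 in those headers and 10.7 in the submitters' processing notes. The deposited value table holds log2 values, which equalled the log2 processed signal minus 1 constant per array within 0.001 for 99.3% of values on the TSG-6 array and 99.4% on the PBS array; its column medians were -3.77 for the TSG-6 array and -3.90 for the PBS array. The arrays share a slide and a scan in the headers.

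From the processed signal, log2 minus the array's 75th percentile over 59305 non-control spots was computed. Spots with an outlier flag (6.44% on the TSG-6 array, 3.40% on the PBS array) were left out, repeated spots averaged, and a gene read from its brightest probe with at least 50% of spots well above background on both arrays. Names came from RefSeq accessions (GRCm38.p6, used for names and promoters; the array was designed on mm9). Genes were counted by fixed sizes of 1.5-fold and 2-fold, since 1 array per group allows no test. Named genes were the 10 members, up to 4 measured genes of each list with the largest differences, and 11 genes named in any case; enterocyte, hepatocyte, macrophage and stellate cell markers are named outside it as marker checks. Some items that the rule or the motif search takes are not reported here. The members and lists were chosen with earlier results of these data known. An enterocyte symbol, Si, matched another gene through a synonym and was dropped after this was seen. Marker lists for endothelium (median 0.19), cholangiocytes (-0.29), exocrine pancreas (-2.06), neutrophils (2.78) and red cells (1.43) were read too. Genes within the last 3 lists did not move alike. They ran from -3.26 to 1.29 over 6 measured pancreas genes and from -0.19 to 3.89 over 9 neutrophil genes. The 4 measured red cell genes ran from -0.13 to 2.36. Alternatives were 6 scalings, normexp (offset 50), the raw spot signal (its median, as no mean was used here), the value table, flags, filters and probe averaging. In data simulated for this comparison, which were used to check the steps, 200 of 15151 genes were changed: a log2 change of 1 came out at a median of 1.01 and one of -1 at -1.04. Python 3.11.15, pandas 2.3.3, numpy 2.4.6, statsmodels 0.14.6 (loess) and limma 3.58.1 in R 4.3.3 were used.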

Additional observations from a re-analysis of the deposited data

How the results depend on the processing

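The members' median difference was 0.37 by the 75th percentile, 0.66 with that percentile over unflagged spots, 0.0080 with quantile, 0.036 with loess and 0.0029 with spike-in scaling, and moved by less than the spot spread under the other 9 alternatives. At least 1.5-fold lower members numbered 0, but 1 (Apoa4) with median, detected-spot, quantile, loess and spike-in scaling, with normexp and with the raw median signal. Under those settings, from 7.36% (normexp) to 25.6% (spike-in scaling) of all genes were at least 1.5-fold lower. At least 1.5-fold higher members numbered 0, but 8 with the percentile of unflagged spots, where 28% of all genes were higher. No named gene past 1.5-fold by the 75th percentile changed sign under any alternative in which it was measured. Members past 1.5-fold only with unflagged spots did: Apoa1 and Apoe, for example, were below 0 under quantile scaling. Over single members 88 values stayed within the spot spread of 0.13 and 42 moved past it; for list medians these were 87 and 30, and for the other genes named 405 and 139. Of the genes named at 1.5-fold, Azgp1 passed it under 9, Proz under 8 and Nectin2 under 8 of 13 alternatives. Counts in the lists at 1.5-fold moved with scaling: from unflagged-spot to spike-in scaling, 12 and 1 other apolipoprotein genes and 16 and 0 secreted hepatocyte proteins were higher, as were 12 and 1 transcription factors, while 0 and 7 of these were lower; 3 and 6 receptor genes were lower. Over all genes measured, 28% and 3.33% were at least 1.5-fold higher under unflagged-spot and spike-in scaling, and 5.49% and 25.6% lower. The share of genes past 2-fold that were higher was 40.7% by the 75th percentile, 29.5% with median, 73.0% with unflagged-spot, 33.1% with quantile, 29.6% with loess and 12.1% with spike-in scaling. No paired analysis was possible because each group has 1 array. Replication is limited by the number of arrays. Well above background were 75.5% of spots on the TSG-6 array and 74.0% on the PBS array, and 8 of 10 members rest on 1 probe.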
